A study of Mus musculus with 4 samples.

Results

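The reticulons are membrane proteins of the endoplasmic reticulum (ER), encoded in the mouse by Rtn1, Rtn2, Rtn3 and Rtn4, and the contacts of the RNA-binding protein IMP2 with their transcripts were described here. All clusters annotated to these genes were taken from a list of IMP2 clusters (stretches of overlapping crosslinked tags), and each distinct interval was counted once. This gave 14 of the 1828 clusters of the list (0.766%), and they lay in 3 of its 761 genes: Rtn1 with 3 clusters, Rtn3 with 9 and Rtn4 with 2. Rtn2 had no cluster in the list. Of the 21900 protein-coding genes, 3.47% had a cluster, and as the reticulons were chosen for description with earlier results known, their 3 of 4 was not tested against that share. Each of the 3 had at least 2 clusters (1.56% of protein-coding genes), a cluster taller than the median height of the list (1.87%) and a cluster in the 3' UTR (3.33%). Within the list these traits were common. Of the 761 listed genes, 342 (44.9%) had at least 2 clusters, 409 had a cluster taller than the median height and 729 had one in a 3' UTR.

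All reticulons share a C-terminal domain whose paired hairpins sit in the outer leaflet of the ER membrane and bend it, which helps to form the tubules that run into axons and dendrites. RTN1 is found mainly in neurons and neuroendocrine cells. RTN3 binds the protease BACE1, and its long form serves as a receptor for the removal of ER tubules by autophagy. RTN4, also called Nogo, is made as several isoforms, and the longest of them, Nogo-A, inhibits the growth of axons through the receptor RTN4R. IMP2 (gene Igf2bp2) belongs to the IGF2BP family, whose members bind mRNAs, often in the 3' UTR, and affect their transport, stability and translation.

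IMP2-bound RNA was mapped by HITS-CLIP, in which ultraviolet light fixes a protein to the RNA it touches before immunoprecipitation and sequencing of the attached fragments. The material was brain of Swiss Webster mouse embryos at E14, irradiated 3 times with 300 mJ/cm2 at 254 nm, and benzonase left fragments of about 40 nucleotides on the protein. The titles of the 4 libraries carry the letter R (2 libraries) or M (2 libraries), which the labels do not explain; the protocol names 2 anti-IMP2 antibodies, raised in mouse and in rabbit. The labels do not say whether embryos were pooled. The libraries are represented by a common list, so the values below have no replicate error, no comparison between libraries or with a control precipitation was made, and all statements describe ranks and counts within the list. Of 10 markers of neurons, 7 had a cluster (all but Tubb3, Neurod1 and Rbfox3), as had 2 of 8 of neural progenitors. Among the neuron markers, Nefl, Neurod6 and Gap43 had 1 cluster each, with heights of 19, 23 and 27, where the lowest height in the list is 18. Dcx, Stmn2, Map2 and Sox11 had highest clusters between 64 and 90. Of erythroid markers, 3 of 6 had a cluster, of which Hba-a1 and Hba-a2 share the same one. Markers with a cluster were 0 of 6 for microglia and 0 of 5 for endothelium. The share over all protein-coding genes was 3.47%. The exact 95% intervals reached 45.9% for microglia and 52.2% for endothelium, so these counts do not show that such cells were absent.

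Rtn1 had the most densely covered 3' UTR of the list. Its 3 clusters covered 614 of 783 bases, or 78.4%, against a median of 4.70% over the 729 genes with a 3' UTR interval, of which 10% exceeded 21.0%. The next gene was Ctnnb1, which encodes beta-catenin, with 78.2%, only marginally lower; it was named after its value was seen. If clusters at most 50 bases apart are joined in every gene, Rtn1 (78.7%) ranks 4 of 729. The longer 3' UTR of Rtn3 (1929 bases) was covered to 57.2% (1103 bases, rank 12 of 729), and that of Rtn4 (2385 bases) to 16.5% (394 bases, rank 102). All 3 genes thus lay above the median, and the spread among them was wide.

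**Figure D1:**
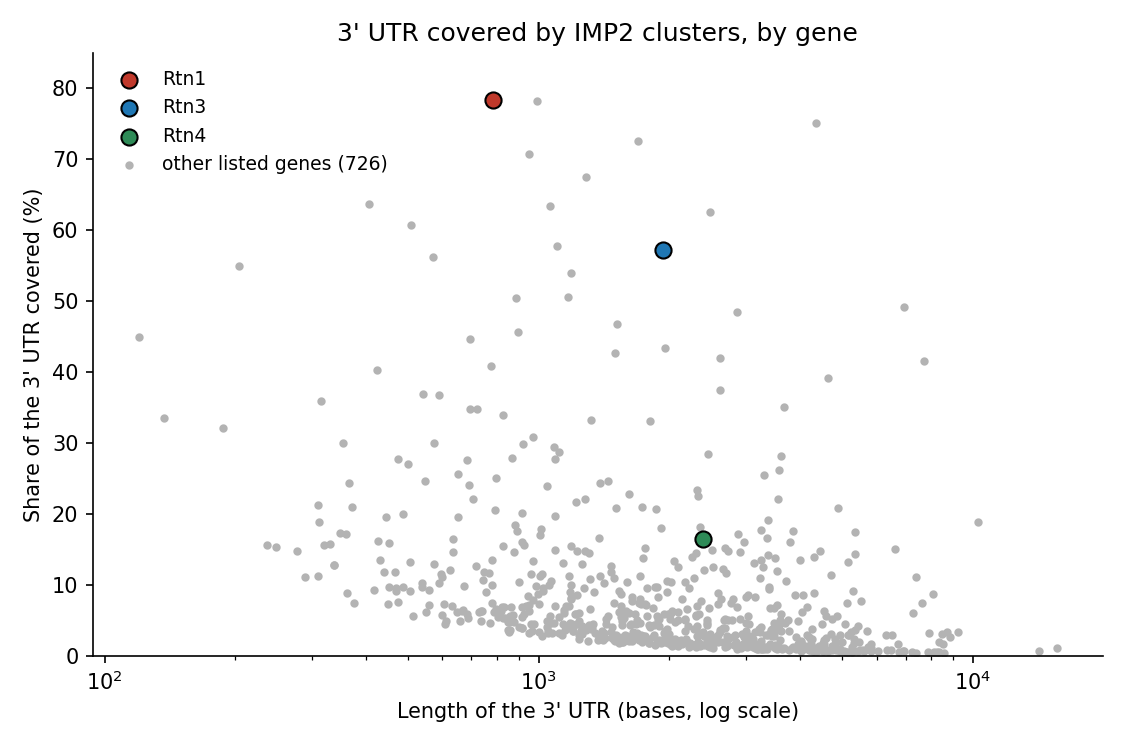
Share of the 3' UTR covered by IMP2 clusters (vertical axis, percent) against the length of the 3' UTR (horizontal axis, bases on a log scale), 1 point per listed gene; Rtn1, Rtn3 and Rtn4 are coloured and the 726 other genes are grey. Rtn1 lies at the top with 78.4%, Rtn3 at 57.2% and Rtn4 at 16.5%, while the median of all genes is 4.70%.

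The share depends on length, since a cluster takes a larger part of a short 3' UTR. Rtn1 has a short 3' UTR, longer than that of only 13.2% of the genes, whereas Rtn3 (48.3%) and Rtn4 (58.3%) lie near the middle. Among the 72 genes, Rtn1 included, whose 3' UTR was within 20% of the length of that of Rtn1, Rtn1 ranked 1 in share covered, where the median was 7.25%. Rtn3 ranked 2 of 140 genes of its own length class (median 4.26%) and Rtn4 ranked 11 of 135 (median 3.29%). In bases covered rather than share, the order changed: Rtn3 ranked 10 of all 729 genes, Rtn1 37 and Rtn4 67. These length classes were chosen after the data were examined, and they do not adjust for the amount of each mRNA.

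The clusters of Rtn1 filled the 3' UTR from the middle to its 3' end. The 3' UTR lies on the minus strand of chromosome 12 at positions 73312739 to 73313521 (mm9), and is shared by both Rtn1 transcripts of the list, which span 24973 and 197188 bases of the genome. The first cluster after the stop codon (73313331 to 73313464) began at base 58 of the 3' UTR and was 134 bases wide. Its height was 36, taken here to mean that at most 36 tags overlapped. The second (73313036 to 73313226) had a height of 84 over 191 bases. The last (73312745 to 73313033) was the tallest, with 94 over 289 bases, and ended 6 bases before the end of the annotated transcript. Only 2 bases separated the second from the last, so together they formed a nearly continuous stretch from base 296 to base 777.

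With the 3' UTR divided into 3 equal parts from the stop codon, clusters covered 51.3% of the first part, 86.2% of the middle part and 97.7% of the last part in Rtn1. The longest stretch of the Rtn1 3' UTR without a cluster had 104 bases.

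Rtn3 carried the most clusters of the family, placed between base 41 and base 1886 of its 3' UTR with uncovered stretches of up to 407 bases. This 3' UTR lies on the minus strand of chromosome 19 at 7500391 to 7502319 (mm9) and is common to the 3 Rtn3 transcripts of the list. The tallest cluster (7500982 to 7501211) had a height of 65 over 230 bases and had its midpoint at 63.4% of the length of the 3' UTR. The next had 57 over 276 bases (7500612 to 7500887), 52 over 99 bases (7501465 to 7501563) and 47 over 53 bases (7502227 to 7502279). The remaining 5 clusters had heights between 24 and 36 and widths between 39 and 162 bases.

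The Rtn3 clusters fell into a group near the stop codon and a larger group in the middle and distal parts, and the heights of the groups overlapped. The proximal group held 3 clusters between bases 41 and 349, with heights of 47, 34 and 29 in the order of the transcript. After it came the longest uncovered stretch, of 407 bases. The other 6 clusters lay between base 757 and base 1886, and had heights of 52, 24, 65, 36, 57 and 24 in the order of the transcript. The 3 equal parts of the Rtn3 3' UTR were covered to 39.5%, 61.1% and 70.9% from the stop codon on. As in Rtn1, the part nearest the 3' end was the most covered.

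In Rtn4, both clusters lay in the proximal part of the 3' UTR. The interval lies on the plus strand of chromosome 11 at 29642030 to 29644414 (mm9) and is shared by the 5 Rtn4 transcripts of the list, whose genomic spans run between 25852 and 51517 bases. A small cluster of 40 bases (29642207 to 29642246) had a height of 28. The main cluster (29642547 to 29642900) had a height of 57 over 354 bases, the widest of the 14 and the 11th widest of the whole list. The last 1514 bases of the 3' UTR held no cluster. The 3 equal parts of the Rtn4 3' UTR were covered to 40.0%, 9.56% and 0%, while the means over all 729 genes were 9.10%, 10.1% and 7.98%. How far each gene's layout would vary between libraries was not measured.

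**Figure D2:**
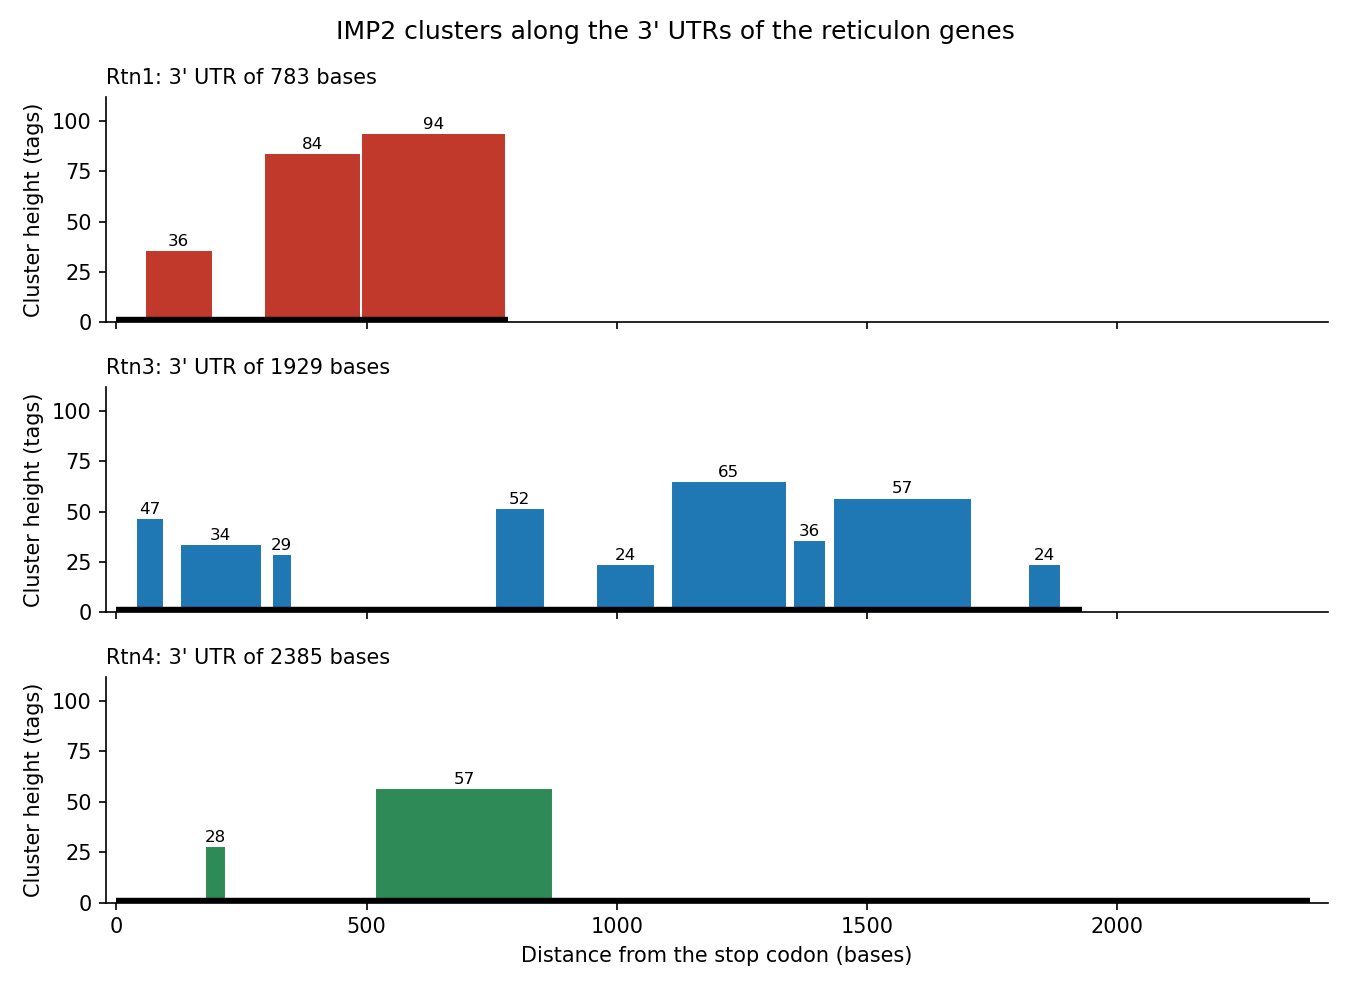
IMP2 clusters along the 3' UTRs of Rtn1, Rtn3 and Rtn4, drawn on a common scale. The horizontal axis gives the distance from the stop codon in bases, the black line is the 3' UTR, and each block spans 1 cluster with its height (tags, number above the block) on the vertical axis; Rtn1 is filled up to its 3' end, Rtn3 carries clusters along most of its length and the last 1514 bases of Rtn4 are empty.

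All 14 reticulon clusters lay wholly within 3' UTRs, where 94.1% of all clusters of the list were found by their midpoint. No cluster was annotated to the coding sequence or the 5' UTR of a reticulon. The transcripts of each gene in the list end in the same 3' UTR, so the clusters do not tell which isoform was bound, and the Nogo isoforms of Rtn4 in particular cannot be told apart.

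By the height of the highest cluster, the 3 genes ranked high among the 761 listed genes. Rtn1 (94) shared rank 4 with 2 other genes and was above 99.2% of listed genes. Rtn3 (65) was above 94.7% of them and Rtn4 (57) above 91.6%, while the median gene reached 31. The second cluster of Rtn1, with 84, stood above 98.8% of all clusters. Rtn3 had more clusters than most, at rank 24 by number, whereas Rtn1 with 3 ranked 128 and Rtn4 with 2 ranked 202. Per 1000 bases of 3' UTR, Rtn3 held 4.67 clusters and Rtn1 3.83, against a median of 0.861; Rtn4, with 0.839, lay at that median. Among the genes with at least as many clusters as Rtn3, its highest cluster was near the middle, above 53.6% of them.

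Over the 14 clusters together, 10 were taller than the median height of 30, where 46.9% of all clusters were. Those 10 were all 3 of Rtn1, 6 of 9 of Rtn3 and 1 of 2 of Rtn4. The median height was 41.5 over the reticulon clusters and 30 over the list, which runs from 18 to 107. Clusters of a gene share its transcript, so they are not independent of each other.

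The reticulon clusters were also wide. Their median width was 125 bases against 53 over the list, and 11 of 14 were wider than that median, as were 49.8% of all clusters. A width of at least 200 bases was reached by 4 of 14, namely the tallest cluster of Rtn1, the 2 tallest of Rtn3 and the main cluster of Rtn4, against 2.9% of all clusters (53 of 1828). Since the fragments were about 40 nucleotides long, such clusters span several fragment lengths, whereas the 39-base cluster of Rtn3 and the 40-base cluster of Rtn4 are about the size of a fragment. Taller clusters were wider throughout the list, with a Spearman correlation of 0.526 over the 1828 clusters and 0.711 over the 14; both measures come from the same tags, and the correlations are given as descriptions. The 53 clusters of at least 200 bases had a median height of 65.

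Many neighbouring clusters of Rtn3 stood close together, while the gaps between the clusters of Rtn1 were 104 and 2 bases. The gaps and the share covered come from the same intervals. Of the 11 gaps between neighbouring reticulon clusters, 6 were at most 50 bases long, 1 in Rtn1 and 5 in Rtn3, where 25.7% of all such gaps in the list were. The median gap was 34 bases in the reticulons and 148 over all listed genes. If clusters at most 50 bases apart are joined, Rtn3 holds 4 clusters in place of 9 and Rtn1 holds 2 in place of 3, while Rtn4 keeps its 2.

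The authors' second score, a fold of the height, placed the reticulons lower than the height did. Rtn1 reached a fold of 8.25 (rank 199 of 761 genes, above 73.9%), Rtn3 8.05 (rank 218, above 71.4%) and Rtn4 6.31 (rank 405, above 46.5%), and the median gene reached 6.46. Of the 14 clusters, 8 had a fold above the median of 5.4, as had 49.9% of all clusters, so by this score the count is near the background. The folds of the 3 Rtn1 clusters were 3.71, 7.85 and 8.25 from the stop codon on. Those of Rtn3 ran between 3.18 and 8.05, and the 2 clusters of Rtn4 had 3.35 and 6.31.

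Height divided by fold gives the level that the fold was implicitly set against, which the header does not define. It was 9.70 to 11.4 in the clusters of Rtn1, 8.36 to 9.03 in those of Rtn4 and 6.01 to 8.07 in those of Rtn3, against a median of 5.96 over the list, which all 14 clusters exceeded, as 50% of all clusters do. For the tallest Rtn1 cluster it was the 15th highest of 1828. The 3 Rtn1 clusters lay above 95.6% of the list or more in this level, the Rtn4 clusters above 87.8% and 93.3%, and the Rtn3 clusters above 50.7% to 84.8%, so that the lowest of Rtn3 lay at the median. No adjustment of the heights for the amount of each mRNA is stated, and no RNA-seq of the same brains was analysed here. More transcript and more IMP2 on each transcript therefore cannot be told apart for any of these heights, or for the widths and shares covered.

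**Figure D3:**
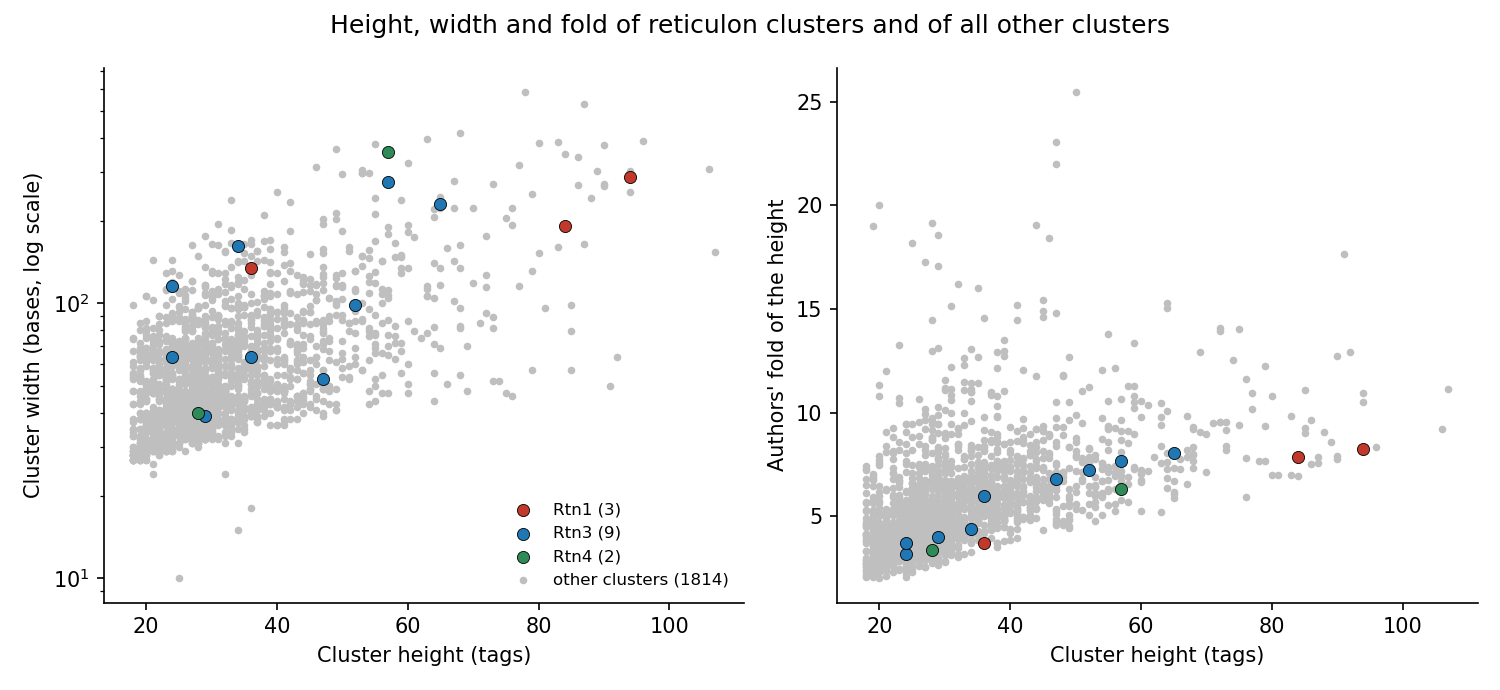
Width (left, bases on a log scale) and the authors' fold of the height (right) against the height of each cluster in tags; the 3 clusters of Rtn1, 9 of Rtn3 and 2 of Rtn4 are coloured and the 1814 other clusters are grey. The reticulon clusters lie mostly in the upper part of the width axis. For a given height, their place on the fold axis varies. The Rtn1 cluster of height 94 has a fold of 8.25, lower than the other clusters of that height. The Rtn3 cluster of height 65 has a fold of 8.05, higher than the other clusters of that height.

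The genes most like each reticulon were sought over 4 measures: highest cluster, number of clusters, length of the 3' UTR and share covered. Likeness was the mean difference in percentile over these measures, among the 729 genes with a 3' UTR interval. Nearest to Rtn1 were Ina, encoding the neuronal intermediate filament protein alpha-internexin (height 77, 3 clusters, 44.7% covered, mean difference 1.82 percentile points), the amyloid precursor gene App (71, 3 clusters, 45.7%, 2.50 points) and the thyroid hormone carrier gene Ttr (88, 3 clusters, 36.7%, 2.73 points). Rtn3 was closest to Gpm6a, which encodes a neuronal membrane glycoprotein. Rtn3 had a height of 65, 9 clusters, 1929 bases and 57.2% covered, and Gpm6a a height of 64, 9 clusters, 1949 bases and 43.4% covered (0.669 points). Gnb1, a G protein beta subunit gene (67, 8 clusters), and the hnRNP gene Hnrnpa0 (80, 8 clusters) followed at 1.99 and 4.13 points. Rtn4 had less close neighbours, namely Rnd3, a small GTPase gene (59, 2 clusters, at 6.53 points), the microtubule plus-end protein gene Clasp1 (54, 2 clusters) and Snn (57, 4 clusters), at up to 7.48 points.

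Genes of the ER, of Nogo receptor signalling and of amyloid precursor processing were counted in 5 lists. Together the lists held 97 genes, of which 17 had a cluster (17.5%, against 3.47% of protein-coding genes). Their highest clusters had a median of 36, against 31 over all listed genes. Only 3 of the 17 reached above the 57 of Rtn4, namely Reep1, App and Vapa, and none reached the 94 of Rtn1. The lists were written with earlier results of these data known, so their share was not tested. The intervals given below cover counting error alone and are not tests against 3.47%. That share counts all protein-coding genes, without regard to expression in the brain.

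Genes that shape ER tubules and sheets had 4 of 28 members listed (14.3%, exact 95% interval 4.03 to 32.7). Reep1, whose product bends ER tubules in a way similar to reticulons and is mutated in hereditary spastic paraplegia in humans, had 4 clusters with a maximum of 72 that covered 14.6% of its 3' UTR. Spast, encoding the microtubule-severing ER protein spastin, had 5 clusters with a maximum of 35. The small GTPase genes Rab18 (36) and Rab10 (29) followed with 1 and 2 clusters. The other 24 had none, among them the genes of the atlastins, which fuse ER tubules (Atl1, Atl2 and Atl3), and the sheet protein gene Ckap4. Of 19 genes of ER contact sites, 2 were listed (10.5%, exact 95% interval 1.30 to 33.1) with 1 cluster each. These were Vapa, encoding an ER anchor for lipid transfer proteins (64, fold 10.1), and Pdzd8 (36), whose product acts in ER contacts with mitochondria and endosomes.

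ER chaperones and ER stress genes had 5 of 20 listed (25%, exact 95% interval 8.66 to 49.1). The lectin chaperone gene Canx led with 6 clusters, a maximum of 47 and 22.5% of its 3' UTR covered. It was followed by its soluble relative Calr (38), the protein disulphide isomerase gene P4hb (31), and the translocon partner genes Sec63 (29) and Sec62 (23). Rtn1 (78.4%) and Rtn3 (57.2%) had a larger part of the 3' UTR under clusters than Canx, and Rtn4 (16.5%) a smaller one.

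Genes on the pathway of Nogo were counted as well, apart from Rtn4, which was itself chosen for description. Of 20 genes of Nogo receptor signalling, 3 had a cluster (15%, exact 95% interval 3.21 to 37.9). These were Olfm1 (40, 2 clusters), a secreted protein gene, the actin-severing cofilin gene Cfl1 (36) and the protein kinase gene Rock2 (19). The height of Rock2 was near the lowest of the list. The receptor genes Rtn4r, Rtn4rl1 and Rtn4rl2 and the co-receptor genes Lingo1, Ngfr and Tnfrsf19 had no cluster. Only 3.47% of all protein-coding genes had one, so this absence is near the background. As no cluster in the list has a height under 18, a gene without a cluster is not shown to be unbound or unexpressed. Among genes of amyloid precursor processing, which RTN3 affects through BACE1, 3 of 10 were listed (30%, exact 95% interval 6.67 to 65.2). App itself had 3 clusters (maximum 71) over 45.7% of its 3' UTR, its relatives Aplp2 (31) and Aplp1 (26) had 3 clusters and 1, and Bace1 and Bace2 had none.

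**Figure D4:**
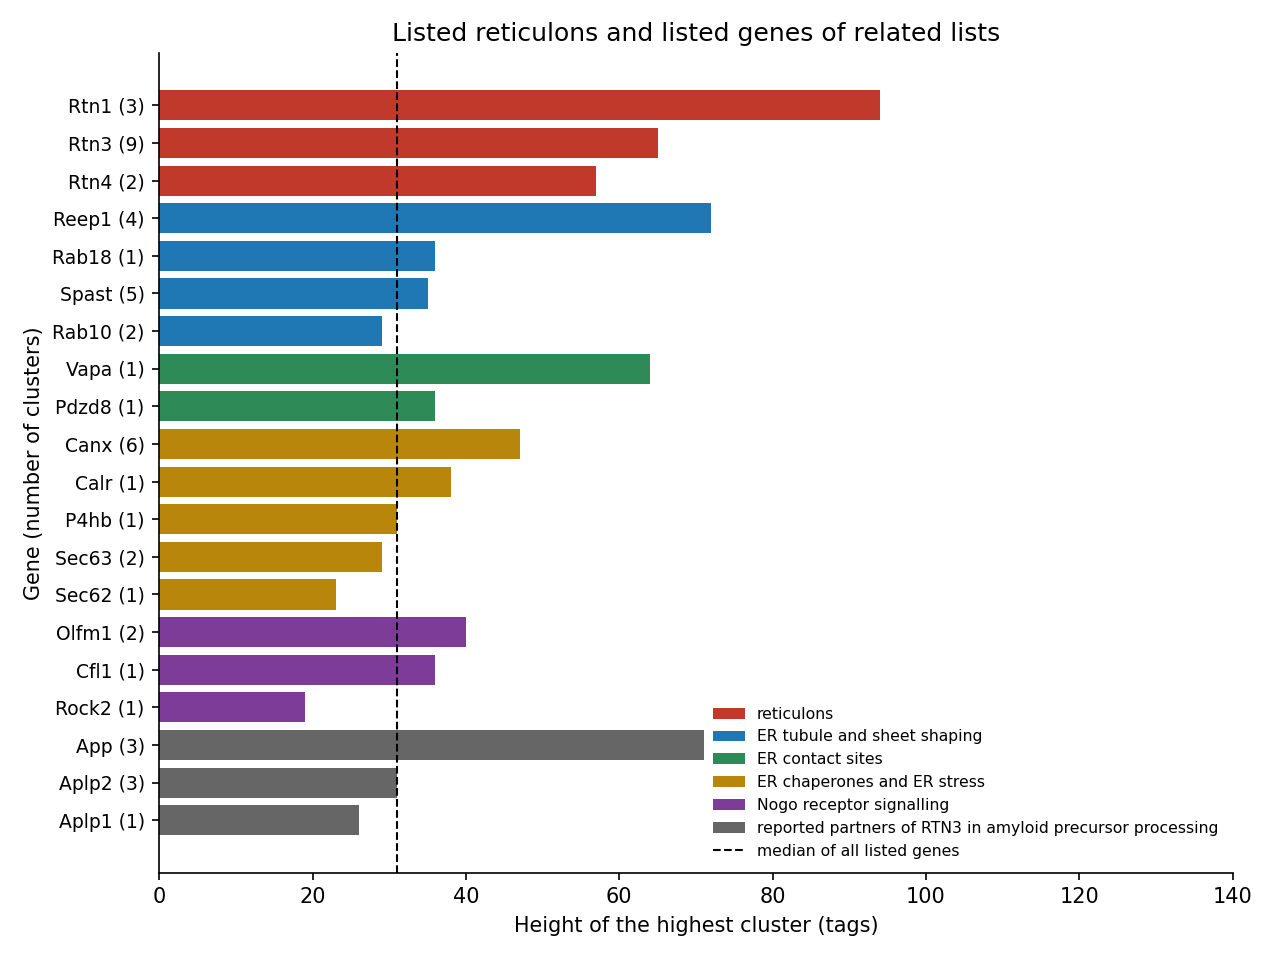
Height of the highest cluster (horizontal axis, tags) of the listed reticulons and of the listed members of the 5 related lists, with the number of clusters in parentheses. Bars are coloured by list and the dashed line is the median of all listed genes, 31; Rtn1 stands highest with 94, and Reep1 (72), App (71) and Vapa (64) are the others above Rtn4 (57) outside the reticulons.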

How the data were processed

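The deposited data were a list of IMP2 HITS-CLIP clusters for all 4 libraries, annotated by the authors to RefSeq transcripts on mm9. The submitters' processing notes name Bowtie and FastQC and give no versions. How peaks were called, and whether libraries were pooled, is not given in the sources used. Per the file headers, the authors' values are a cluster height, a signal (pileup) taken to be the maximum count of tags that overlap, and a fold of the height, a ratio to an undefined level. Tags per library are unknown, and PCR duplicates could not be checked. The list does not hold the sequences under the clusters, and a genome of its build was not used here.

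The 2865 lines were reduced to distinct intervals by chromosome, start, end and strand, with starts made 1-based. Transcripts were matched to a RefSeq table of GRCm38 by accession (1088) or name (11) for symbols only. The region was set by the midpoint of a cluster. The share covered is the union of clusters within the longest deposited 3' UTR interval of a gene. A percentile is the percent of genes or clusters with a lower value. The likeness of genes used percentile ranks instead, in which tied genes share their average rank. Shares of genes carry exact 95% intervals (Clopper-Pearson), for counting error alone. Named genes were the reticulons, all listed members of the lists and the 3 genes most like each reticulon. Members and lists were chosen with earlier results of these data known. The code was tested on 500 simulated transcripts (python 3.11.15, pandas 2.3.3, scipy 1.17.1). Alternatives covered joined clusters, taller clusters, fold in place of height, other intervals and region rules.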

Additional observations from a re-analysis of the deposited data

How the results depend on the processing

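The region of the 14 clusters was the same under each rule for it. The share covered was the same with the shortest 3' UTR interval and with whole clusters. Neither outcome could differ, because each gene had a single 3' UTR interval and all 14 clusters lay wholly within it. With fold in place of height, the percentile of the highest cluster was 73.9 for Rtn1, 71.4 for Rtn3 and 46.5 for Rtn4. Among genes with as many clusters or more, it was 97.0, 53.6 and 82.7, and with the median cluster of a gene it was 99.9 for Rtn1 and 79.1 for Rtn3. Counting every line of the list, once for each transcript, gave 6, 27 and 10 clusters. Joining at up to 50 bases gave Rtn3 4 clusters and 63.3% covered, and the rank of Rtn1 in share covered was then 4 of 729. Only clusters with a fold above the median left 5 in Rtn3 and 1 in Rtn4. Only clusters taller than the median height left 1 in Rtn4, 45.8% covered in Rtn3 and 14.8% in Rtn4, with Rtn1 still at rank 1. With at least 2 clusters required, 0 contact site genes, 2 chaperone genes and 1 Nogo gene remained, and 3 chaperone genes with taller clusters. The cause of these shifts was not tested. Leaving out a library was not run, as no column holds a single library. No paired analysis was possible because no column holds the values of a single R or M library.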
